A study of Mus musculus with 6 samples.

Results

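Tspo and 6 genes grouped with it were followed in the cervical spinal cord of mice with an imiquimod-induced, psoriasis-like dermatitis. The members were chosen by name: Tspo, its ligand Dbi, its partners Acbd3 and Vdac1, the cholesterol carrier Star, the steroid-forming enzyme Cyp11a1 and the outer-membrane enzyme Maob. All 7 were found among the 54532 genes measured, and 6 of them were expressed highly enough to be tested. Tspo was the only member called, and it rose 8.27-fold in imiquimod cords.

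RNA from C57BL/6 mice was sequenced in 6 libraries, each labelled a biological replicate and taken here as 1 mouse. In the imiquimod group (3 mice), 50 mg of 5% imiquimod cream, a Toll-like receptor agonist, had been put on the shaved nape daily for 2 days. The vehicle group (3 mice) received the same amount of cream without the drug. Age and sex were not given in the sources used here, and the cord was taken as a whole piece of tissue.

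Tspo, the translocator protein, sits in the outer mitochondrial membrane, where it binds cholesterol and the ligands used for positron emission imaging of glia. It has long been placed at the entry of cholesterol into mitochondria, the first step of steroid synthesis, although whether steroid synthesis needs it is disputed. In the nervous system it is known as a marker of activated microglia and is also found in endothelium, ependyma and astrocytes.

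The values are FPKM, in which a gene's fragments are divided by its exon length and by the size of the library. Recovered fragments ran from 21242415 to 23200996 per imiquimod library and from 18174411 to 20672881 per vehicle library, so every imiquimod library was the deeper. Imiquimod replicate 3 stood apart for the housekeeping gene Gapdh, listed at 26.4 FPKM there and at 1.56 to 2.15 FPKM in the other 5 libraries, and had a lower sum of oligodendrocyte markers (5538 FPKM) than the other imiquimod libraries (7063 and 7112 FPKM). Tspo rose by 3.03 ± 0.26 without it. Gapdh was itself low in the other 5 libraries, near the 1.82 FPKM that Star averaged in vehicle cords. Why Gapdh was low there and higher in imiquimod replicate 3 was not tested. Markers of neurons summed to 1150 to 1484 FPKM in imiquimod cords and 1579 to 1675 FPKM in vehicle cords and no neuronal or oligodendrocyte marker was listed at 0 in all libraries. Over the whole table, 2326 of 16513 genes tested (14.1%) differed with limma at a Benjamini-Hochberg adjusted p under 0.05, 1444 higher (8.74%) and 882 lower (5.34%). With length and GC trends taken out of every library, the split was 1255 higher and 1545 lower. The groups did not overlap for 37.9% of genes tested.

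Tspo lies on chromosome 15 at 83563592 to 83574203 (GRCm38, plus strand). It stood at 114, 79.7 and 99.7 FPKM in the imiquimod cords and at 8.60, 14.9 and 11.97 FPKM in the vehicle cords. The lowest imiquimod library was far above the highest vehicle library. The means were 97.7 ± 17.0 FPKM in imiquimod and 11.8 ± 3.14 FPKM in vehicle cords (SD, n = 3 each), an 8.27-fold difference. On the log2(FPKM + 0.1) scale, Tspo rose by 3.06 ± 0.21 (SE, limma adjusted p = 8.08e-04). The 95% interval of the change was 5.88-fold to 11.8-fold. In this bulk tissue, more cells of a type and more RNA per cell cannot be told apart.

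Tspo ranked among the abundant transcripts in imiquimod cords and among the moderately expressed ones in vehicle cords. By mean FPKM it was gene 426 of 29491 listed above 0 in imiquimod cords, and gene 4324 of 28734 in vehicle cords. Its change was the 84th highest of the 16513 genes tested. The values rest on 2463, 1874 and 2460 fragments in imiquimod and 160, 272 and 246 fragments in vehicle libraries. Tspo remained higher, with a change of 2.85 to 3.24, when any 1 library was left out (limma adjusted p from 0.00126 to 0.00703). The antisense neighbour Mcat shares 53 of Tspo's 1051 exon bases and averaged 7.68 FPKM in imiquimod and 6.21 FPKM in vehicle cords. Over those bases, reads of both genes cannot be told apart unless the counting used strand, which no source states.

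**Figure D1:**
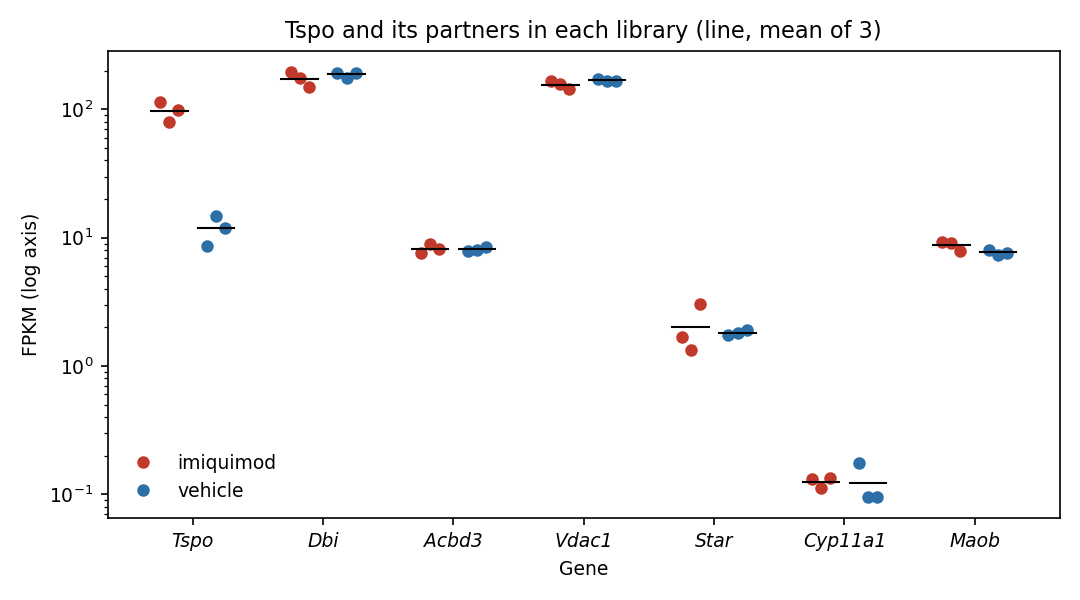
FPKM on a log axis for Tspo and the 6 other members. Imiquimod libraries are in red, left of vehicle libraries in blue, with 1 point per library and a line at the mean of 3. Tspo separates by group, at 79.7 to 114 FPKM in imiquimod and 8.60 to 14.9 FPKM in vehicle cords, while the points of the other 6 genes overlap.

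Dbi encodes the acyl-CoA-binding protein, also called diazepam-binding inhibitor, whose peptides are endogenous ligands of Tspo. It stood at 196, 177 and 149 FPKM in imiquimod cords and at 193, 175 and 194 FPKM in vehicle cords. The groups overlapped, with imiquimod replicate 3 the lowest library of all. The log2 change was -0.11 ± 0.11 (limma adjusted p = 0.527), and its 95% interval ran from 0.77-fold to 1.11-fold. Without imiquimod replicate 3 the change was -0.01 ± 0.08. The whole interval of the Tspo change lies above that of Dbi.

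The receptor was higher relative to its ligand in every imiquimod library than in any vehicle library. The log2 ratio of Tspo to Dbi was -0.79, -1.15 and -0.58 in imiquimod cords and -4.48, -3.55 and -4.01 in vehicle cords. The group means differed by 3.17, without overlap (exact permutation test, two-sided, p = 0.1, which is the lowest value open to groups of 3). Dbi was the more abundant transcript per length in all 6 libraries.

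Acbd3 is a Golgi protein with an acyl-CoA-binding domain that binds Tspo and a regulatory subunit of protein kinase A. It stood at 7.58, 8.88 and 8.16 FPKM in imiquimod cords and at 7.90, 8.07 and 8.49 FPKM in vehicle cords. Its change was 0.01 ± 0.08 (limma adjusted p = 0.967), with an interval of 0.88-fold to 1.14-fold. Vdac1, the main voltage-dependent anion channel of the outer membrane, has been described as Tspo's neighbour in a membrane complex. It stood at 168, 158 and 143 FPKM in imiquimod cords and at 173, 167 and 166 FPKM in vehicle cords. The groups overlapped, and the change was -0.11 ± 0.08 (limma adjusted p = 0.371, interval 0.82-fold to 1.05-fold). Without imiquimod replicate 3 it was -0.05 ± 0.06. With the length and GC trend removed, Vdac1 was called lower, at -0.31 (limma adjusted p = 0.0424). Annotated near-copies took almost no reads: 1 of Dbi was listed at 0, and of 2 of Vdac1 the higher averaged 0.096 FPKM in imiquimod cords.

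Star, the steroidogenic acute regulatory protein, carries cholesterol to the inner mitochondrial membrane. It was low in both groups, at 1.67, 1.34 and 3.05 FPKM in imiquimod cords and at 1.75, 1.80 and 1.90 FPKM in vehicle cords. A single library, imiquimod replicate 3, was above all others, with 294 fragments against 142 and 123 in the other imiquimod libraries, and the coefficient of variation was 44.8% in imiquimod and 4.37% in vehicle cords. The change over all libraries was 0.06 ± 0.27 (limma adjusted p = 0.90). Without imiquimod replicate 3 it was -0.26 ± 0.14 (limma adjusted p = 0.296), so the sign of this uncalled change depends on that library. That replicate was also the one in which Gapdh stood apart, and whether the 2 are linked was not tested.

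Cyp11a1, the mitochondrial P450 that cuts the cholesterol side chain to give pregnenolone, was close to the detection limit. It stood at 0.131, 0.112 and 0.133 FPKM in imiquimod cords and at 0.176, 0.0958 and 0.0958 FPKM in vehicle cords, under the minimum mean of 0.5 FPKM for the test. These values stand for 13, 12 and 15 fragments in imiquimod and 15, 8 and 9 fragments in vehicle libraries. The ratio at equal depth was 1.03, and its exact 95% interval, for counting error alone, ran from 0.63 to 1.69. A long noncoding gene on the same strand, Gm17322, shares 145 of its exon bases, and how the fragments on them were shared out is not known.

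Maob, the monoamine oxidase B of the outer mitochondrial membrane, breaks down dopamine and phenylethylamine and is a marker used to image astrocytes. It stood at 9.34, 9.09 and 7.95 FPKM in imiquimod cords and at 8.06, 7.38 and 7.59 FPKM in vehicle cords. Imiquimod replicate 3 lay under the highest vehicle library, so the groups overlapped. The change was 0.19 ± 0.08 and did not pass (limma adjusted p = 0.177, interval 0.996-fold to 1.31-fold), nor did it without imiquimod replicate 3 (0.26 ± 0.07, limma adjusted p = 0.09). Maoa, the sister enzyme encoded next to it on the X chromosome, stood at 12.5, 13.5 and 11.2 FPKM in imiquimod and 13.8, 12.8 and 15.6 FPKM in vehicle cords (-0.18 ± 0.10, limma adjusted p = 0.279). The log2 ratio of Maob to Maoa was -0.42, -0.57 and -0.49 in imiquimod cords and -0.77, -0.79 and -1.03 in vehicle cords. The ratio did not overlap between the groups and differed by 0.37 (exact permutation test, two-sided, p = 0.1, again the lowest open to it).

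Among the 7 genes, the order of levels per length was the same in both groups except for 1 swap. Dbi came first, then Vdac1 and Tspo. Dbi (149 to 196 FPKM) and Vdac1 (143 to 168 FPKM) overlapped in imiquimod cords, whereas in vehicle cords Dbi (175 to 194 FPKM) lay above Vdac1 (166 to 173 FPKM). In imiquimod cords Tspo stood clear of Maob, the next gene down, which reached 9.34 FPKM. In vehicle cords its lowest library, at 8.60 FPKM, was just above the highest for Acbd3, at 8.49 FPKM. Maob and Acbd3 exchanged places between the groups, but their libraries overlapped in each. Star and Cyp11a1 came last.

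The 5 genes whose profile over the 6 libraries lay nearest to that of Tspo were Dhx58, Irgm1, H2-D1, B2m and Rtp4. They were the nearest of 7958 genes with a mean of at least 5 FPKM, by the root mean square distance between centred log2 profiles (0.12 to 0.21). Dhx58, a cytosolic RNA-binding regulator of RNA sensing, stood at 11.7, 8.09 and 10.1 FPKM in imiquimod and 1.02, 1.67 and 1.22 FPKM in vehicle cords. Irgm1, an immunity-related GTPase, stood at 35.4, 22.2 and 31.5 FPKM in imiquimod and 2.95, 4.97 and 3.19 FPKM in vehicle cords. In both, as in Tspo, imiquimod replicate 2 was the lowest imiquimod library and vehicle replicate 2 the highest vehicle library.

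B2m, the light chain of MHC class I, averaged 2093 ± 218 FPKM in imiquimod and 284 ± 61.9 FPKM in vehicle cords (SD, n = 3 each). H2-D1, a class I heavy chain with close copies in the genome, averaged 702 ± 62.9 FPKM in imiquimod and 79.1 ± 16.7 FPKM in vehicle cords. Rtp4, a chaperone of membrane receptors, averaged 47.4 ± 13.3 FPKM in imiquimod and 7.08 ± 2.73 FPKM in vehicle cords. All 5 were called higher, with log2 changes between 2.75 and 3.17. Since any gene with a large difference between the groups comes near in this measure, the distance describes these libraries and no more.

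**Figure D2:**
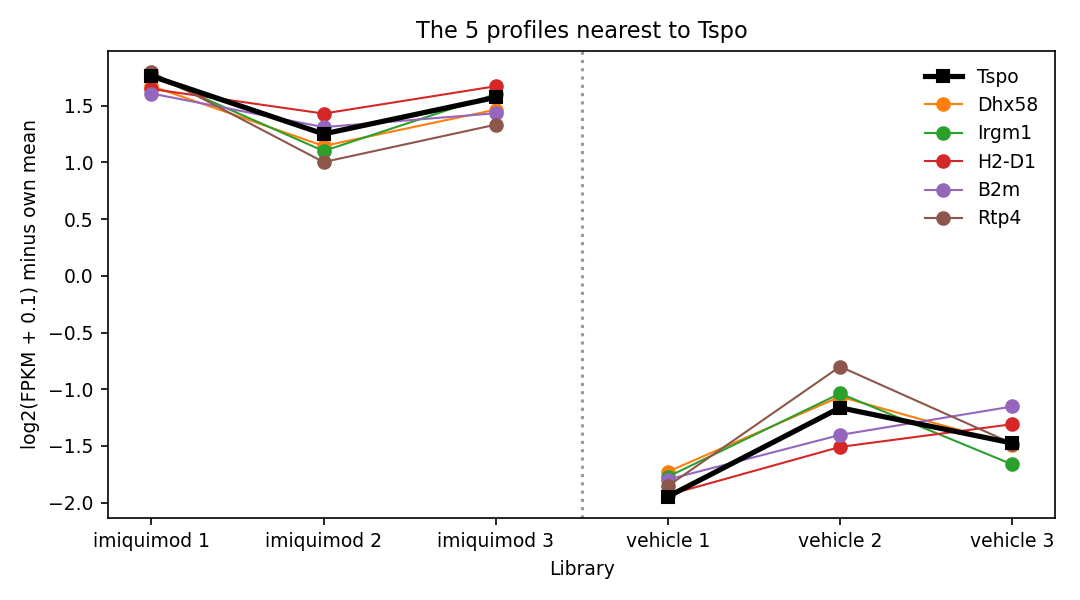
log2(FPKM + 0.1) of Tspo (black squares) and its 5 nearest genes (coloured circles), each minus its own mean, in the 3 imiquimod libraries and then the 3 vehicle libraries. Lines only link the points of 1 gene within a group, and all 6 genes lie about 3 log2 units higher in the imiquimod libraries.

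Markers of several cell types known to express Tspo also differed between the groups. Beside the marker counts here and in the next paragraph, 8.74% of all genes tested were called higher and 5.34% lower. Microglial markers summed to 495 to 614 FPKM in imiquimod and 234 to 292 FPKM in vehicle cords, a 2.08-fold difference, and 6 of 14 were called higher and 1 lower. C1qa and C1qb, subunits of complement C1q, were the most abundant of the list and weigh most in that sum. Both were called higher, at 200.4 and 175.8 FPKM in imiquimod and 74.9 and 66.7 FPKM in vehicle cords. Over the 14 markers the median log2 change was 0.36, against -0.01 over all genes tested. Fcrls was called lower (-0.70 ± 0.10), and P2ry12, Siglech and Gpr34 were lower in every imiquimod library without passing the test, while Csf1r and Sall1 overlapped between the groups. Without imiquimod replicate 2, 3 microglial markers were called lower. The list of monocytes and border macrophages summed to 23.9 to 87.3 FPKM in imiquimod and 9.62 to 22.3 FPKM in vehicle cords, with 5 of 12 higher and 3 lower. The higher ones were Ms4a4c, Ly6c2, Ccr2, Plac8 and Ms4a7, found in monocytes and macrophages. Their means differed by 9.07-fold (Ms4a7) to 20.2-fold (Ms4a4c), and those of Tspo by 8.27-fold. On the log2(FPKM + 0.1) scale, Ms4a7 (2.34 ± 0.47) and Ccr2 (3.02 ± 0.43) had estimates under that of Tspo (3.06 ± 0.21), and the others above it. Ms4a7 and Ccr2 averaged only 0.136 and 0.132 FPKM in vehicle cords, so they entered the test through the imiquimod group alone. Chil3, of the same list, differed by 5.52-fold and was not called. In every gene of that list, those called lower included, imiquimod replicate 2 was the lowest imiquimod library, as for Tspo. The lower ones were Mrc1, Cd163 and Pf4, which mark macrophages at the borders of the nervous system. Mrc1 and Cd163 averaged 0.274 and 0.449 FPKM in imiquimod cords and entered the test through the vehicle group alone. None of that list was called lower without imiquimod replicate 1 or any 1 vehicle library, and 1 was without imiquimod replicate 2. Of the higher ones, 3 were called without imiquimod replicate 1, imiquimod replicate 3, vehicle replicate 1 or vehicle replicate 3. Endothelial markers summed to 330.5 to 357 FPKM in imiquimod and 203.5 to 239 FPKM in vehicle cords, with 7 of 12 higher and 1 lower. Cldn5, a tight junction protein, averaged 92.2 FPKM in imiquimod and 41.7 FPKM in vehicle cords. Slc2a1, the most abundant of that list, averaged 81.9 and 78.3 FPKM, and its groups overlapped (limma adjusted p = 0.705). The gene called lower was Slco1a4, at 5.95 FPKM in imiquimod and 11.2 FPKM in vehicle cords.

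For ependymal cells the sums were 28.0 to 32.5 FPKM in imiquimod and 25.1 to 27.9 FPKM in vehicle cords. Of 8 tested, 1 was called higher and 1 lower. The higher one, Rarres2, had the largest rise of the list (8.16, 5.66 and 11.5 FPKM against 2.23, 2.40 and 2.48 FPKM in vehicle cords). The lower one, Ccdc153, was not called without vehicle replicate 1 or vehicle replicate 3. Foxj1, the most abundant of the list, was lower in every imiquimod library without a call (means 12.2 and 14.3 FPKM). Astrocyte markers, which bear on Maob, summed to 1450 to 1651 FPKM in imiquimod and 1658 to 1711 FPKM in vehicle cords, with 1 of 12 higher and 5 lower (3 lower without vehicle replicate 1 and 7 without imiquimod replicate 2). Slc1a2, the glial glutamate transporter, was among the lower ones (-0.70 ± 0.10), and Gfap (0.23 ± 0.09) was not called. Oligodendrocyte markers (2 of 10 lower) and neuronal markers (2 of 12 lower) also had lower sums in every imiquimod library, but none of either list was called with any 1 vehicle library left out, and 5 neuronal markers were lower without imiquimod replicate 2. The count was 1 for oligodendrocytes without imiquimod replicate 1 and 1 for neurons without imiquimod replicate 3. Of neutrophil markers, 1 of 6 tested was higher, but none without imiquimod replicate 1, imiquimod replicate 3 or vehicle replicate 2. Of red blood cell markers none of 6 was called. None of these markers was listed at 0 in all libraries. The part of these markers' cells in the Tspo rise was not tested.

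**Figure D3:**
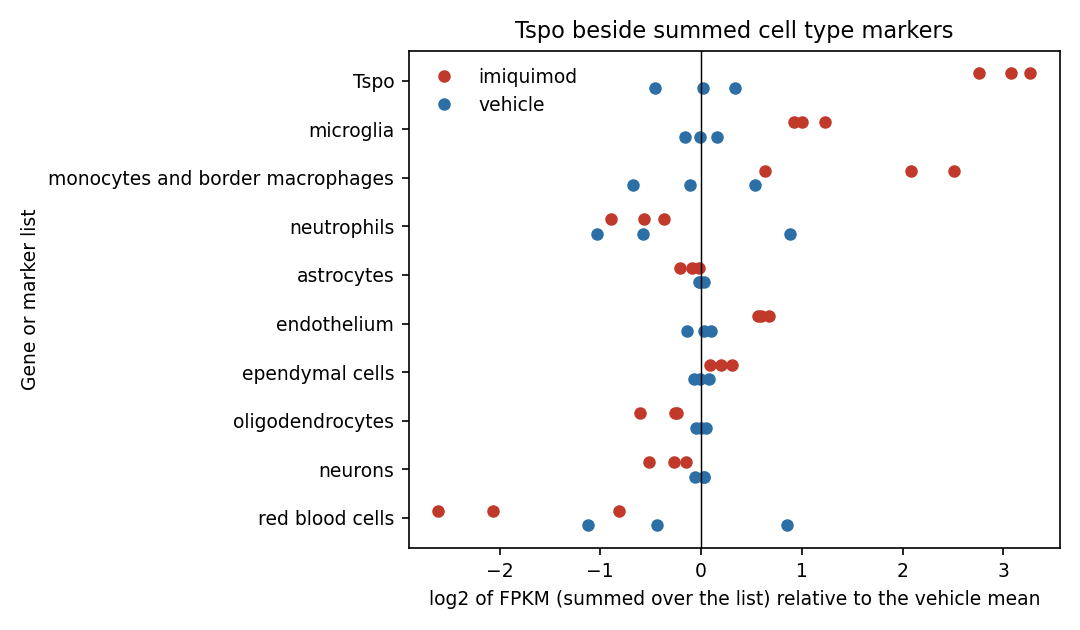
FPKM of Tspo and summed FPKM of each cell type's marker list, as log2 relative to the vehicle mean, with imiquimod libraries in red above vehicle libraries in blue, 1 point per library. Tspo lies farthest to the right. The sums for microglia, endothelium, monocytes and border macrophages, and ependymal cells lie higher in every imiquimod library, the last pair by a narrow gap. Among ependymal markers only Rarres2 was called higher. The sums for astrocytes, oligodendrocytes and neurons lie lower.

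The wider machinery around Tspo was counted over lists of related genes. Across 8 lists, 87 of 109 distinct genes were tested and 10 were called, 4 higher and 6 lower. That is 11.5% of those tested, against 14.1% of all genes tested. Leaving out 1 library gave 5 (vehicle replicate 1 or vehicle replicate 3) to 18 calls (imiquimod replicate 2), and 6 without imiquimod replicate 3.

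In the list of the Tspo complex and cholesterol import, 19 of 20 genes were tested, of which Tspo rose and Stard4 fell. The median log2 change was -0.02, against -0.01 over all genes tested. Stard4, a soluble sterol carrier of the START family, stood at 6.86, 8.33 and 7.62 FPKM in imiquimod cords and at 10.6, 10.7 and 11.4 FPKM in vehicle cords. It fell by 0.52 ± 0.09 on the log2 scale (limma adjusted p = 0.0112), a call that ended without vehicle replicate 3 (limma adjusted p = 0.0526). The other channels of the outer membrane, Vdac2 (0.02 ± 0.07) and Vdac3 (0.03 ± 0.10), and the adenine nucleotide carriers Slc25a4 (-0.16 ± 0.10) and Slc25a5 (-0.06 ± 0.08) did not pass. Tspoap1, which encodes a Tspo-binding protein, stood at 9.96, 11.6 and 13.2 FPKM in imiquimod and 12.97, 14.04 and 11.96 FPKM in vehicle cords (limma adjusted p = 0.353). Tspo2, the paralogue of red blood cell precursors, was at most 0.0396 FPKM in imiquimod and 0.0892 FPKM in vehicle cords.

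The other genes with an acyl-CoA-binding domain gave no call: all 8 of the family were tested. Acbd5, a peroxisomal tether, came nearest, at 9.88, 11.2 and 9.53 FPKM in imiquimod cords and 12.9, 11.6 and 12.1 FPKM in vehicle cords (-0.26 ± 0.08, limma adjusted p = 0.0833). Without imiquimod replicate 2, 1 of the family was called lower. Of 20 genes of the outer mitochondrial membrane and mitochondrial mass, only Tomm70a, an import receptor, was called. It stood at 20.4, 20.98 and 19.8 FPKM in imiquimod and 16.6, 16.6 and 17.6 FPKM in vehicle cords (0.27 ± 0.06, limma adjusted p = 0.0279). The call ended without imiquimod replicate 3 or any 1 vehicle library (limma adjusted p from 0.052 to 0.125). The summed level of that list was 581 to 644 FPKM in imiquimod and 614 to 627 FPKM in vehicle cords, so the ranges overlapped.

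**Figure D4:**
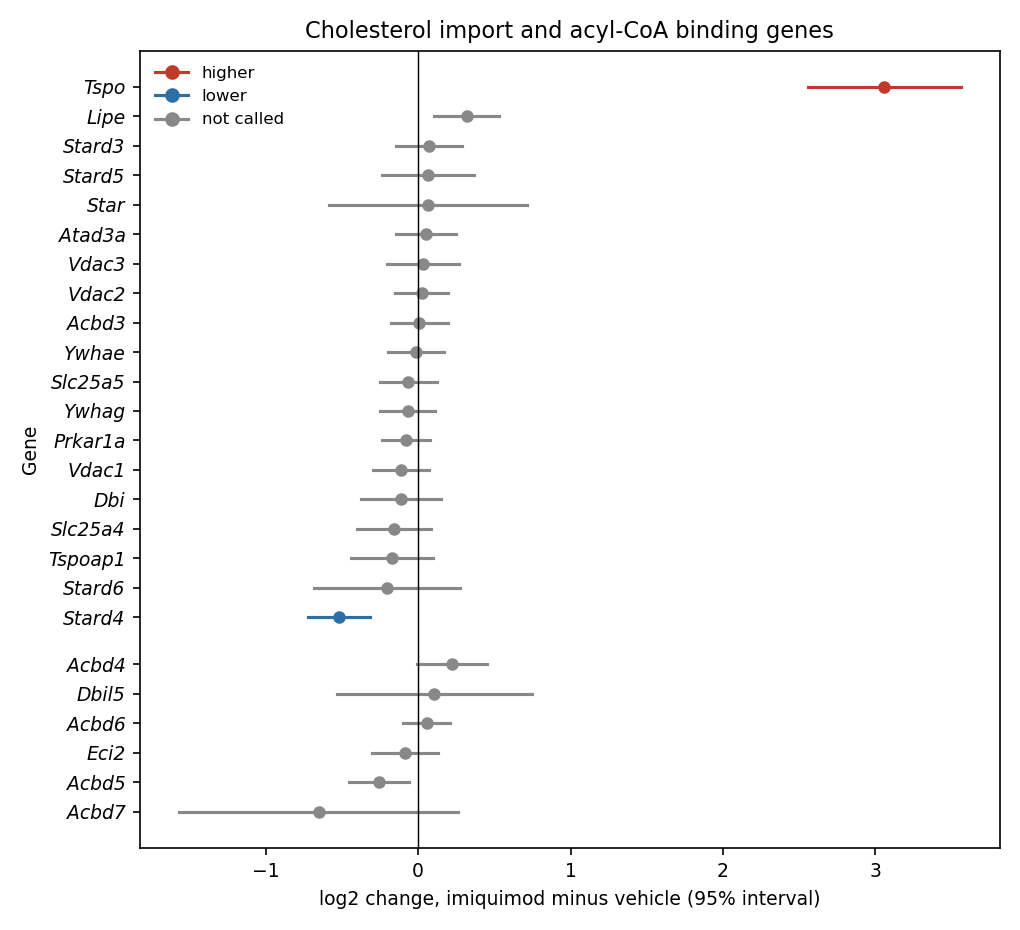
log2 change (imiquimod minus vehicle) with its 95% interval for the tested genes of cholesterol import (upper block) and the further genes with an acyl-CoA-binding domain (lower block), red for called higher, blue for called lower and grey for not called. Tspo (3.06) and Stard4 (-0.52) are the only genes called. Acbd7, a gene of low level, has the lowest estimate (-0.65) with a wide interval from -1.57 to 0.26, and the intervals of Lipe and Acbd5 leave out 0 without a call.

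Downstream of cholesterol import, many steroid-forming enzymes were under the minimum for the test, and 3 of the 18 tested were called, all lower. That is 16.7%, against 5.34% of all genes tested called lower and 14.1% called in either direction. Of 9 mitochondrial P450s and their electron donors, 3 were tested. Cyp27a1, the sterol 27-hydroxylase of the inner membrane, stood at 12.7, 13.4 and 13.5 FPKM in imiquimod cords and at 19.4, 19.3 and 17.9 FPKM in vehicle cords. It fell by 0.51 ± 0.06 (limma adjusted p = 0.00407), and the call held when any 1 library was left out. The electron donors Fdx1 (0.11 ± 0.11) and Fdxr (-0.27 ± 0.10) did not pass. Cyp11b1 and Cyp11b2, which complete adrenal corticosteroids, were listed at 0 in all 3 imiquimod libraries and in 2 of 3 vehicle libraries.

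Of 27 further steroid and neurosteroid enzymes, 15 were tested, of which 2 fell and none rose. With imiquimod replicate 2 left out, 3 fell and 1 rose, and with imiquimod replicate 3 or any 1 vehicle library left out, 1 fell. Their median log2 change was -0.23, against -0.01 over all genes tested. Hsd11b1, which regenerates active glucocorticoid, stood at 6.42, 5.60 and 4.89 FPKM in imiquimod cords and at 10.4, 9.06 and 8.70 FPKM in vehicle cords. It fell by 0.73 ± 0.12 (limma adjusted p = 0.0107), a call that held when any 1 library was left out. Srd5a1, the 5-alpha-reductase that starts the path to allopregnanolone, stood at 7.202, 6.81 and 6.12 FPKM in imiquimod and 8.64, 8.26 and 8.42 FPKM in vehicle cords. It fell by 0.33 ± 0.08 (limma adjusted p = 0.0361), but not without imiquimod replicate 3 or any 1 vehicle library (limma adjusted p from 0.0787 to 0.137).

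Akr1c14, which in rodents makes allopregnanolone in the next step, was 0.839, 0.497 and 0.671 FPKM in imiquimod and 1.10, 0.817 and 1.01 FPKM in vehicle cords, without passing the test (limma adjusted p = 0.203). Of the enzymes that turn pregnenolone into progesterone and androgens, Hsd3b1 was at most 0.0241 FPKM in imiquimod and 0.031 FPKM in vehicle cords, and Hsd3b2 and Hsd3b6 were listed at 0 in every library. Hsd3b7, an enzyme of bile acid synthesis, was also listed at 0 throughout. How multi-mapping reads were counted is not stated, so a listed 0 may not mean that no RNA was present. Cyp17a1, at most 0.0236 FPKM, was listed at 0 in 2 of 3 libraries of each group. Markers of adrenal and gonadal cells summed to 0.704 to 1.45 FPKM in imiquimod and 0.575 to 0.987 FPKM in vehicle cords, with none of 7 tested. Of 10 steroid receptors 9 were tested and none was called, with Nr3c1, the glucocorticoid receptor, at -0.21 ± 0.07 (limma adjusted p = 0.0921). With imiquimod replicate 2 left out, 1 receptor was higher and 2 were lower.

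Around Maob, all 11 genes listed for monoamine breakdown were tested, of which 2 rose and 1 fell. Of all genes tested, 8.74% were called higher and 5.34% lower. Akr1b3, an aldose reductase that also reduces the aldehydes left by monoamine oxidases, stood at 8.05, 6.61 and 7.25 FPKM in imiquimod and 4.53, 4.31 and 3.88 FPKM in vehicle cords. It rose by 0.77 ± 0.10 (limma adjusted p = 0.00503), also when any 1 library was left out. Renbp rose by 0.95 ± 0.17 (limma adjusted p = 0.0152), but it encodes an epimerase of amino sugars that is not known for monoamine breakdown, and its call ended without imiquimod replicate 3, vehicle replicate 1 or vehicle replicate 3 (limma adjusted p from 0.0523 to 0.0607). Aldh7a1, an aldehyde dehydrogenase, fell by 0.25 ± 0.05 (limma adjusted p = 0.0283), a call that ended without imiquimod replicate 3 or any 1 vehicle library (0.0647 to 0.13).

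**Figure D5:**
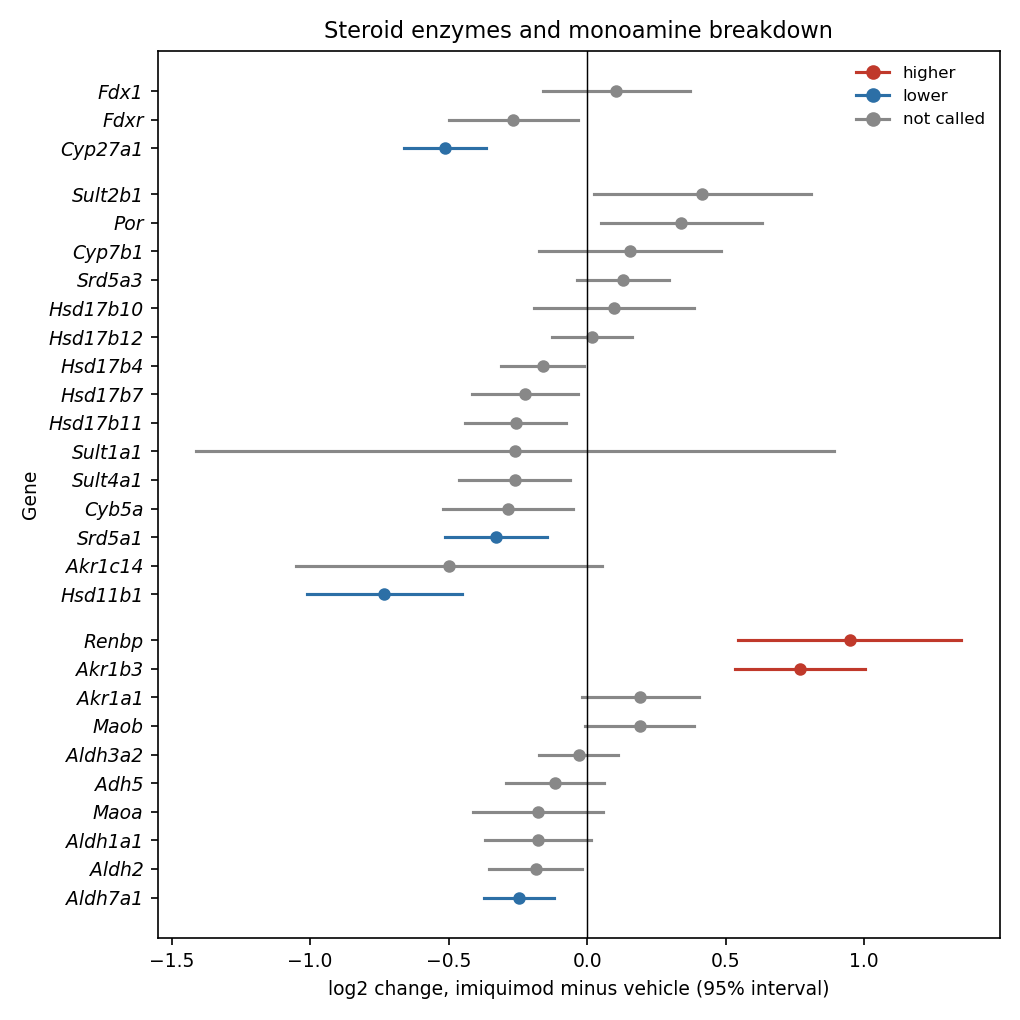
log2 change (imiquimod minus vehicle) with its 95% interval for the tested mitochondrial P450s and electron donors (upper block), steroid and neurosteroid enzymes (middle block) and 10 of 11 genes of monoamine breakdown (lower block), red for called higher, blue for called lower and grey for not called. Hsd11b1 and Cyp27a1 lie lowest among the called genes, at -0.73 and -0.51, and Akr1b3 and Renbp are higher.

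Of 10 targets of glial imaging, Tspo among them, 8 were tested, and the only call besides Tspo was S1pr1, the sphingosine-1-phosphate receptor found in astrocytes and endothelium. It stood at 31.2, 27.7 and 28.7 FPKM in imiquimod and 41.0, 38.0 and 38.4 FPKM in vehicle cords, and fell by 0.42 ± 0.07 (limma adjusted p = 0.0107). That call ended without vehicle replicate 1 (limma adjusted p = 0.057). Csf1r, the colony-stimulating factor receptor of microglia, stood at 19.2, 19.9 and 15.7 FPKM in imiquimod and 17.2, 18.5 and 19.3 FPKM in vehicle cords (-0.01 ± 0.10). P2rx7, an ATP-gated channel, stood at 2.33, 2.53 and 2.71 FPKM in imiquimod and 2.67, 2.46 and 2.69 FPKM in vehicle cords (-0.05 ± 0.10). Neither passed. P2ry12, a purine receptor of resting microglia, stood at 5.01, 5.50 and 3.36 FPKM in imiquimod and 7.44, 6.42 and 9.46 FPKM in vehicle cords, and also missed the threshold (limma adjusted p = 0.0591). The cyclooxygenase genes Ptgs1 (0.41 ± 0.14) and Ptgs2 (1.23 ± 0.64) did not pass, and Cnr2 and Nos2 were under the minimum for the test. With imiquimod replicate 2 left out, 2 of these targets were called higher and 2 lower.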

How the data were processed

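The authors deposited 1 value per gene and library, taken as FPKM because the values, times exon length, fall on whole fragments. HISAT2 2.0.5, featureCounts 1.5.0-p3, DESeq2 1.16.1 and the mm10 build are named, with no roles, in the submitters' processing notes. Annotation, strand setting and multi-mapping were not stated in the sources used. Symbols were found for 54409 of 54532 identifiers, and exon lengths and coordinates (GENCODE M21, GRCm38) for 54495. The fragments were recovered from FPKM times exon length, which came out whole for 97.4% to 97.6% of values under 1000 fragments (tolerance 0.05 of a fragment). Intervals of counts cover counting error only. Genes with a mean of at least 0.5 FPKM in either group were tested with limma 3.58.1 (R 4.3.3, mean-variance trend) on log2(FPKM + 0.1), which understates changes of low genes, with Benjamini-Hochberg adjustment over all 16513. A gene under the minimum in one group could enter through the other. The fit was tested on simulated data with the same spread setting for every gene. That test does not cover genes that vary more, such as Star. Alternatives were other pseudocounts and minimums, each library left out, a replicate block, TPM and median-ratio scaling, length and GC trends removed, and voom on the recovered fragments. Near-copies (at least 90% identity over 200 bases) were sought with BLAST 2.17.0. Python 3.11.15 did the rest.

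The members and lists were chosen with earlier results of these data known. Text names all members, up to 4 called genes per list and direction, some of the 3 most abundant markers per list and the 5 profiles nearest to Tspo. Other genes, taken for their role or as examples of uncalled values, were named after their values were seen. The labels call each library a biological replicate, and that each is a single mouse was assumed. No sequence is printed. Values of some list genes are not reported here.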

Additional observations from a re-analysis of the deposited data

How the results depend on the processing

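Tspo was called higher in all 17 alternatives (log2 change 2.85 to 3.24, limma adjusted p from 3.33e-05 to 0.00747). Dbi, Star, Acbd3 and Maob were called in none of 17. Vdac1 was called lower, at -0.31, with the length and GC trend removed, and in none of the other 16. Cyp11a1 entered the test only with no filter (0.04, limma adjusted p = 0.96). Of the whole table's 2326 calls (1444 higher, 882 lower), leaving out 1 library gave 847 to 2986 (660 to 1690 higher, 187 to 1296 lower). With voom on the recovered fragments 2569 were called. With no filter, 508 genes were lower. With the length and GC trend removed, 1545 were lower and 20 pathway genes were called in place of 10 (5 to 18 with 1 library left out). The cause was not tested. Replicate numbers are shared between groups, but same-numbered libraries did not deviate together (correlations 0.0186, -0.097 and -0.0331). Pairs with different numbers ran from -0.102 to 0.134. With 3 libraries per group, these correlations cannot show whether same-numbered libraries share a batch. With the replicate number as a block, 1330 genes were called (894 higher, 436 lower), Tspo had an adjusted p of 0.00747, and Srd5a1 (0.0749), Aldh7a1 (0.0923) and Tomm70a (0.0896) were not called. Srd5a1 was not called with no filter (0.0597), nor Aldh7a1 with TPM scaling (0.0676). The Tspo to Dbi and Maob to Maoa ratios kept their sign in all 10 alternatives each. Leaving out 1 library could not change it, since the groups did not overlap, and the replicate block leaves the difference as it was. Genes under about 0.0863 FPKM (3 fragments of a 2 kb gene) are beyond this depth.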
